A study of Mus musculus with 10 samples.

Results

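The genes described here are those of the cytosolic ribosome, the particle that translates every nuclear messenger RNA. They were taken by name from GENCODE vM21: protein-coding genes called Rpl or Rps with a number and at most 1 of the letters a, x or l, with Rplp0, Rplp1, Rplp2 and Rpsa. This gave 80 members of the 55536 genes in the count files, 49 of the large subunit and 31 of the small subunit. Counts came from bladders of C57BL/6 mice in 3 genotypes: 4 libraries of wild type (WT), 3 of OMD-/- and 3 of PRELP-/-. OMD (osteomodulin) and PRELP are secreted proteoglycans of the extracellular matrix. Both knockouts are constitutive, with the coding exons of the gene replaced by a β-galactosidase gene. The labels give no age or sex, spell the second genotype PRLEP-/-, and do not say whether the libraries of a genotype came from separate mice, so p-values measure only the spread between these libraries, which may be technical.

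The cytosolic ribosome is built in the nucleolus from ribosomal RNA and a matched supply of each protein, and cells keep the messages of these genes at related levels. In mammals the messages start with a stretch of C and T bases, the 5′ terminal oligopyrimidine (TOP) tract, through which mTORC1 and LARP1 set how strongly they are translated and how long they last. Some members have tasks beside the ribosome: free Rpl5 and Rpl11 bind Mdm2 and stabilise p53, Rps6 is the target of S6 kinase, and Rps27a is made as a fusion with ubiquitin.

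Library totals ran from 20391437 counts in WT replicate 4 to 46269079 in WT replicate 1. The PRELP-/- label went with its gene: Prelp was at 1.84 to 4.2 CPM (counts scaled to library size, with TMM factors over the 10 libraries) in PRELP-/- and at 215 to 317 in WT. Omd was at 0 in every OMD-/- library but at most 0.532 CPM in WT, too low to check that label. The 7 umbrella cell markers of the urothelium summed to between 9304 and 23440 CPM, while the 7 smooth muscle markers summed to between 230.2 and 1286 CPM and the fibroblast markers to between 8133 and 21290 CPM, so urothelial and fibroblast RNA were both plentiful and smooth muscle RNA was scarcer in tissue labelled as bladder. PRELP-/- replicate 1 stood apart from the other 9 libraries, so counts of genes called in PRELP-/- against WT are given with and without it. Some libraries were very alike: the per-gene chi-square between 2 libraries had a mean of 3.1 for OMD-/- replicates 2 and 3 and 3.57 for PRELP-/- replicates 2 and 3, where sampling noise alone gives about 1, and of 24.5 to 223 between replicate 1 and either of them. In WT the mean was 8.3 for replicates 3 and 4, 11.6 for replicates 1 and 2, and 28.9 to 49.3 for the other pairs. Summed Y-linked genes ran with these pairs, at 189 and 163 CPM in WT replicates 1 and 2, 0 and 0.0443 in replicates 3 and 4, 120 in PRELP-/- replicate 1 and 18.8 and 18.5 in replicates 2 and 3, and 18.15 in OMD-/- replicate 1 against 0.806 and 0.731 in replicates 2 and 3. Y-linked level and library pair cannot be told apart within a genotype.

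Sequences around the annotated starts show where the TOP tract would lie if those starts are the ones used, which was not tested. Annotations can differ: the window of Rpl22 on chr4 begins at 152324426, and its GENCODE gene at 152325742. A missing run here therefore does not show that a message lacks the tract. RefSeq promoters (build GRCm38.p6) were found for 60 of the 80 members. Each line below gives 30 bases on the gene's strand, from 10 before the annotated first base to 20 from it on, with the longest run of C or T in capitals. The first lines are members called in the OMD-/- comparison (Rpl28, Rpl38, Rpl7a) and members with a long run over the first base (Rps6, Rps27, Rplp2). Rpl10 and Rps4x, also called there, close the set because their annotated start holds no such run. Of the 10 members called higher there, 8 were in the promoter table, and 3 of these 8 held a run of at least 6 over the first base.
Rpl28, chr7:4792955-4792984, plus strand: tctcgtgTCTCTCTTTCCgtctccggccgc
Rpl38, chr11:114668570-114668599, plus strand: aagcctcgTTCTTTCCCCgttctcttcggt
Rpl7a, chr2:26910797-26910826, plus strand: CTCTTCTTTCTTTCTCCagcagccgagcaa
Rps6, chr4:86857348-86857377, minus strand: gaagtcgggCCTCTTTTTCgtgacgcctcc
Rps27, chr3:90213629-90213658, minus strand: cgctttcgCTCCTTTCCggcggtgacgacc
Rplp2, chr7:141447641-141447670, plus strand: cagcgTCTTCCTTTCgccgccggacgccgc
Rpl10, chrX:74270806-74270835, plus strand: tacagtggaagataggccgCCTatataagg
Rps4x, chrX:102189372-102189401, minus strand: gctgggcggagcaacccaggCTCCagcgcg
A run of at least 8 C or T bases lay in this window in 23 of the 60 members, 38.3%, and in 13.0% of all 27025 genes in the promoter table. A run of at least 6 that included the annotated first base was held by 19 members, 31.7%, against 8.14% of all genes. The gene-wide shares are for windows of the same length and strand, and a gene with several starts was entered by the start with the longest run. Members with a run over the first base and members without it had close medians, given here with no test: the median log2 difference of PRELP-/- replicate 1 from replicates 2 and 3 was 1.64 for the 19 and 1.62 for 38 tested members without it, and the median log2 fold change of OMD-/- against WT was 0.11 in both.

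The members took between 4.23% and 5.48% of all counts in 9 libraries and 12.7% in PRELP-/- replicate 1. In WT the share was 4.48%, 4.41%, 5.12% and 4.89% in replicates 1 to 4. In OMD-/- it was 5.48%, 4.23% and 4.27%, so that replicate 1 lay above every WT library and replicates 2 and 3 below every one. In PRELP-/- it was 12.7%, 5.21% and 5.02%, so that replicate 2 lay above the WT range and replicate 3 inside it. Large-subunit genes took 2.34% to 3.01% and small-subunit genes 1.88% to 2.47% outside that library, and 6.73% and 5.96% in it. The ratio of large- to small-subunit counts was 1.21 to 1.28 in the 9 libraries and 1.13 in PRELP-/- replicate 1, the lowest of all. These are bulk samples, in which more cells of a kind and more RNA per cell cannot be told apart.

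**Figure D1:**
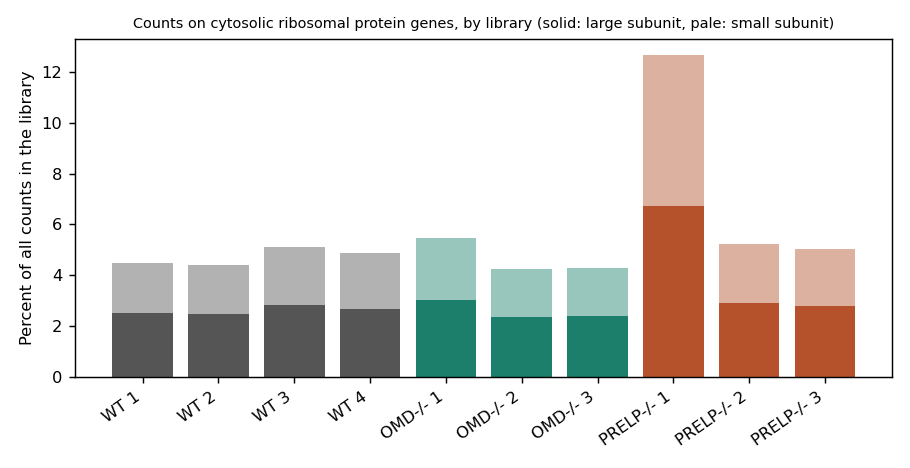
Percent of all counts on the ribosomal protein genes in each of the 10 libraries, with large-subunit genes as solid and small-subunit genes as pale bars, stacked from 0. PRELP-/- replicate 1 reaches 12.7% and every other library lies between 4.23% and 5.48%.

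In WT, per kilobase of the principal transcript, the median level of the 77 members with enough counts to be tested was 607 CPM per kb, with quartiles at 390.4 and 818 CPM per kb. The highest were Rps27 at 3240, Rps15 at 1864 and Rplp1, 1 of the acidic stalk proteins, at 1621 CPM per kb. Rps27 has the shortest transcript of these, at 345 bases, and only 1.4% of its 50-base windows occur in no other annotated transcript, so reads could be shared with copies of the gene. The tissue-restricted paralogs were close to absent. Rpl3l, which is typical of heart and skeletal muscle, had 12, 5, 1 and 1 counts in WT and at most 1 in any knockout library. Rpl39l, a paralog expressed in testis, had 0, 0, 10 and 12 counts in WT and at most 4 in a knockout library. Rpl10l, another testis paralog, had 0 counts in every library. These 3 were not tested in the comparisons that use all libraries. Rps27l, a paralog of Rps27 and a p53 target, was at 54.3, 55.7, 72.7 and 73.9 CPM in WT, against 1018, 899, 1363 and 1192 CPM for Rps27.

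Within WT the members already separated by library pair. In 40 of the 77, replicates 3 and 4 both exceeded replicates 1 and 2, and in 4 both were lower, while over all genes tested the shares were 28% and 32.1%. Rps27a, the ubiquitin fusion, was at 448 and 424 CPM in replicates 1 and 2 and at 698 and 651 in replicates 3 and 4. Rps7 was at 569.6 and 599 against 793 and 841, and Rpl39 at 205 and 185 against 309 and 291. Rps14 was at 799 and 751 against 1184 and 1072. Rpl10 was at 713, 702, 694 and 688 CPM, with the 4 libraries close together.

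Against WT, 10 members were slightly higher in OMD-/- and Rps10 was lower. In edgeR's quasi-likelihood test 10 of the 77 members were higher and 1 was lower at an adjusted p under 0.05, where over all 16647 genes tested 14.3% were higher and 15.1% lower. The share of members that were higher, 10 of 77, was thus close to the background, and the share that were lower was far under it. The median log2 fold change of the members was 0.12, with 60 of 77 above 0, and that of all genes tested was 0.00. Every OMD-/- library exceeded every WT library in 14 members, where 19.2% of all genes did so, and lay below in 1 member, against 19.7%. Markers of other cell types also differed between these groups: in OMD-/- 6 of 8 leukocyte markers were higher (median log2 fold change 1.34), as were 4 of 6 fibroblast markers (1.16) and 3 of 7 umbrella markers (0.30), with 0 lower in each list. Of the 4 proliferation markers tested 3 were higher (1.06) and 0 lower. Counts on noncoding genes took 0.514% to 0.532% in OMD-/- and 0.828% to 1.12% in WT. The part of these in the members' changes was not tested.

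The 10 members that rose had log2 fold changes of 0.34 to 0.44 (SE 0.099 to 0.138, adjusted p 0.0151 to 0.046). Rpl10, which sits near the peptidyl transferase centre and is needed for joining of the subunits, was at 1075, 835 and 829.8 CPM in OMD-/- and at 688 to 713 in WT (log2 fold change 0.38, SE 0.10, adjusted p = 0.0151). Rpl37a was at 612, 473 and 478 CPM in OMD-/- and at 408, 419, 399.9 and 375 in WT (0.38 ± 0.10, adjusted p = 0.0162). In both genes all OMD-/- libraries were above all WT libraries, and replicate 1 was highest. Rps4x, the X-linked small-subunit gene, was at 1369.6, 1042 and 1068 CPM against 962, 902, 918 and 772 (0.38 ± 0.11, adjusted p = 0.0272). Rpl7a was at 391, 310.3 and 302 CPM against 265, 264, 277 and 222 (0.38 ± 0.11, adjusted p = 0.0227). Rps26, whose protein sits at the messenger exit site, was at 797, 624 and 633 CPM against 581, 538, 559.9 and 441 (0.37 ± 0.12, adjusted p = 0.0349). None of these 3 groups overlapped either. Rpl21 had the largest fold change, 0.44 ± 0.14 (adjusted p = 0.0353), at 108, 102 and 83.3 CPM against 73.8, 74.2, 85.4 and 55.0, and its groups overlapped. Others that rose were Rps28, Rpl28 and Rpl38, the last encoding a protein linked to translation of Hox messages, at 326, 235 and 248 CPM against 205, 194, 230.1 and 219.8. In 9 of the 10 the groups did not overlap, which their being called makes likely.

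Rps10 was the member that fell, by 2.3 on the log2 scale (SE 0.333, adjusted p = 0.000766). It was at 0.754, 0.424 and 0.777 CPM in OMD-/- and at 2.39, 2.75, 3.41 and 4.3 in WT, with 10 to 17 reads in OMD-/- and 63 to 120 in WT. These are very low for a small-subunit gene, since Rps19 was at 444 to 499 CPM in WT. The annotated readthrough gene RPS10-NUDT3 covers 475 bases of Rps10 exons on the same strand, 20.6% of them, and had 0 counts itself. How reads in shared bases were assigned is not given in the sources used here, and the part of the overlap in the low level was not tested. Rpl24 and Rpl13a have overlaps of the same kind, with Gm28037 over 47.0% and Gm45713 over 29.4% of their exons, and were likewise low, at 0.279 to 1.15 and 12.7 to 18.7 CPM in WT.

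**Figure D2:**
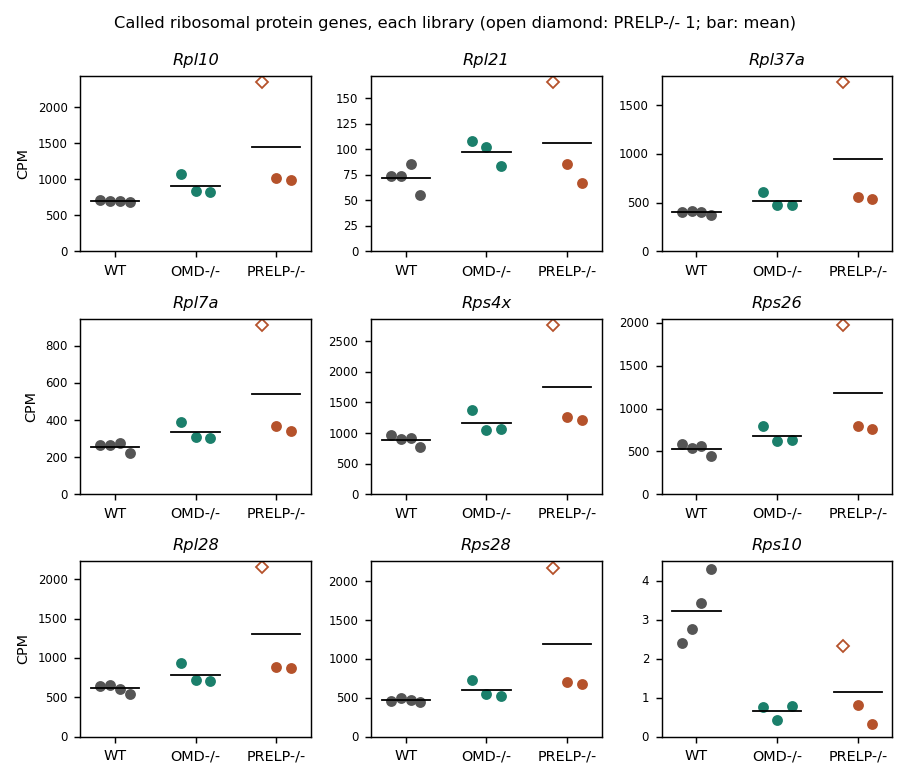
CPM of 8 of the 10 members called higher in OMD-/- and of Rps10, in each library, on axes that start at 0; bars are group means and the open diamond is PRELP-/- replicate 1. Among the OMD-/- points replicate 1 (leftmost) is highest in every panel but Rps10, and the diamond lies above all other points in every panel but Rps10.

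The rise in OMD-/- went largely with replicate 1. Replicate 1 was the highest of the 3 OMD-/- libraries in 75 of 77 members, where it was so in 41.3% of all genes. The median log2 difference of the members from the WT mean was 0.43 in replicate 1, −0.02 in replicate 2 and 0.01 in replicate 3. Without replicate 1, 2 members were higher, Rpl10 (0.26 ± 0.07, adjusted p = 0.0206) and Rpl37a (0.26 ± 0.07, adjusted p = 0.0323), and Rps10 was lower, where 13.5% of all genes were higher and 12.0% lower. The median over the 78 members then tested was −0.003. Scaling on library totals in place of TMM also ended the 10 calls and turned the members' median to −0.04, while it moved the median of all genes to −0.16, with 7.54% of all genes higher and 25.7% lower. OMD-/- replicate 1 also held more umbrella marker RNA (15850 CPM, against 11700.0 and 11950.0 in replicates 2 and 3). It held fewer leukocyte marker counts (271.5 CPM, against 573 and 586), inside the WT range of 260.8 to 321.1. The part of either in the result was not tested.

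Other members named for their role did not pass in OMD-/-. Rpl5 was at 828, 643 and 665 CPM against 707, 619, 865 and 779 in WT (−0.06 ± 0.13, adjusted p = 0.749). Rpl11, its partner in the 5S particle and on Mdm2, was at 542, 384 and 375 against 371, 431, 525 and 490.0 (−0.07 ± 0.15, adjusted p = 0.758). In both, the OMD-/- range lay across the WT range. For the stalk genes Rplp0, Rplp1 and Rplp2 the fitted log2 values were 0.17, 0.06 and 0.28, with adjusted p of 0.387, 0.828 and 0.148. Those of Rps6, Rpsa (the laminin receptor precursor) and Rps19, a gene mutated in Diamond-Blackfan anaemia, were 0.23, 0.23 and 0.12 (adjusted p 0.146, 0.165 and 0.474), and those of Rpl22, Rpl3, Rps27a and Rps27l were −0.03, 0.19, −0.20 and −0.19 (adjusted p 0.895, 0.209, 0.452 and 0.31).

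**Figure D3:**
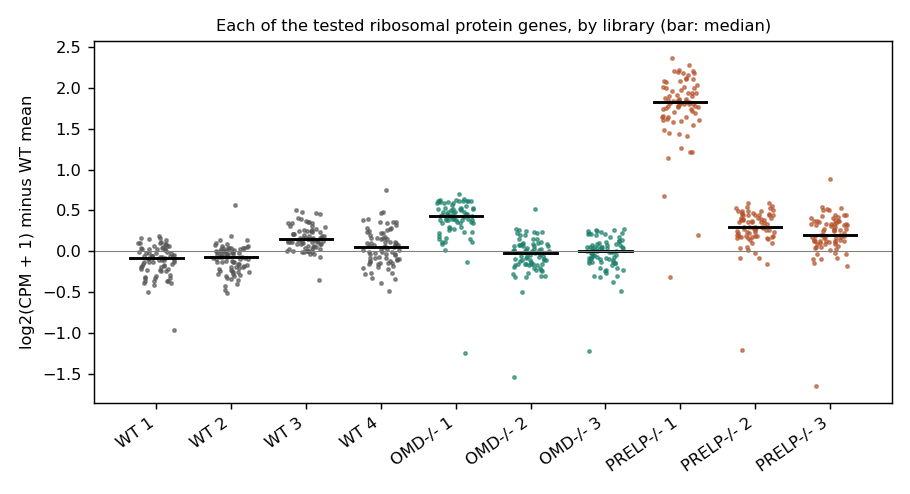
Difference of log2(CPM + 1) from the WT mean for each of the 77 tested members in each library; a WT library is set against the other 3, and bars are medians. The median is 1.82 in PRELP-/- replicate 1, 0.43 in OMD-/- replicate 1, 0.30 and 0.20 in PRELP-/- replicates 2 and 3, and between −0.08 and 0.15 in the other libraries.

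In PRELP-/- nearly all members were above WT, by an amount that 1 library decided. With all 3 libraries edgeR's quasi-likelihood test called 0 of 77 members, although 59 had an unadjusted p under 0.05. The smallest adjusted p was 0.0705, for Rpl10. Over all 16581 genes 1.4% were higher and 5.89% lower. The median log2 fold change of the members was 0.95, with 75 of 77 above 0, against 0.02 for all genes. Every PRELP-/- library exceeded every WT library in 46 members, where 13.6% of all genes did so, and every one lay below in 1 member, Rps10, against 16.4%. DESeq2 called 40 members higher and 1 lower on the same libraries, where it called 5.03% of all genes with an adjusted p higher and 8.53% lower. With sample quality weights limma-voom called 35 higher and 1 lower, against 20.4% and 21.6% of all genes. The members' median in that weighted fit was 0.25, close to the median without replicate 1 given below. Its calls therefore do not stand apart from the fit that leaves replicate 1 out.

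Without PRELP-/- replicate 1 the fold changes were smaller and more of them passed. Of the 78 members then tested 36 were higher, 22 of the large and 14 of the small subunit, and Rps10 was lower, where 10.7% of all genes were higher and 11.5% lower. The log2 fold changes of the 36 ran from 0.25 to 0.58 (adjusted p 0.00126 to 0.0469), and the median over all 78 was 0.25. The highest were Rps28, Rps26, Rps2, Rpl10, Rpl28 and Rps4x. Rps28 was at 707 and 683 CPM in PRELP-/- replicates 2 and 3 and at 456, 503, 469 and 450.4 in WT (0.58 ± 0.07, adjusted p = 0.00162), with 2171 CPM in replicate 1. Rps26 was at 791 and 762 CPM and at 1976 in replicate 1 (0.56 ± 0.11 without it, adjusted p = 0.00802). Rpl10 was at 1014 and 996 CPM and at 2351 in replicate 1 (0.53 ± 0.06 without it, adjusted p = 0.00126). In all 3 genes both remaining libraries were above every WT library. Of the 10 members that rose in OMD-/-, 9 were among the 36, all but Rpl21, but the comparisons share the WT libraries. The PRELP-/- side of this fit is the close pair of replicates 2 and 3, so its p-values rest in part on the small spread of that pair. With each close pair summed as 1 sample and replicate 1 kept, 0 members were higher, with a median of 1.20. Over all 18335 genes that fit called 0 higher and 13 lower, so it could call very little.

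By role, some members passed without replicate 1, with the same close pair set against WT, and others did not. The stalk genes Rplp0 (2750.1 and 2622 CPM, against 1812 to 2216 in WT) and Rplp2 (773 and 697, against 485 to 625) rose without replicate 1, by 0.41 ± 0.10 and 0.42 ± 0.11 (adjusted p 0.0195 and 0.0247), while Rplp1 was at 983 and 895 CPM inside the WT range of 642 to 1021. Rps6 was at 872 and 897 CPM against 626 to 703 (0.44 ± 0.07, adjusted p = 0.00518), and Rpsa at 1246 and 1220.3 against 821 to 989 (0.43 ± 0.09, adjusted p = 0.0126). The Mdm2-binding pair did not pass: Rpl5 was at 760.1 and 719.8 CPM (0.01 ± 0.13, adjusted p = 0.98) and Rpl11 at 511 and 492 (0.15 ± 0.13, adjusted p = 0.455), both inside the WT range. For Rps27a and Rps27 the fitted values were −0.05 and −0.09 on the log2 scale, with adjusted p of 0.878 and 0.703. For Rps19, Rpl22 and Rpl39 they were 0.22, 0.13 and 0.11, with adjusted p of 0.0963, 0.586 and 0.753. Rps10 was at 0.802 and 0.322 CPM and fell by 2.46 on the log2 scale (SE 0.425, adjusted p = 0.00537), with 41 reads, 2.33 CPM, in replicate 1. Its low count and the exon overlap given above hold here too.

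**Figure D4:**
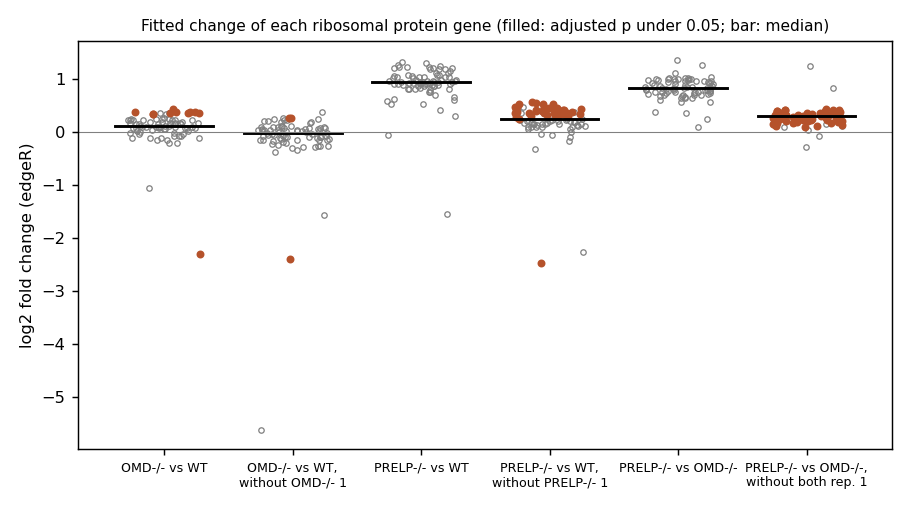
Log2 fold change of each member fitted by edgeR in the 3 comparisons, with all libraries and without replicate 1 of the knockouts; filled points have an adjusted p under 0.05 and bars are medians. Without replicate 1 the medians are −0.003 in OMD-/- against WT, 0.25 in PRELP-/- against WT and 0.30 in PRELP-/- against OMD-/-, and the lowest point is Rpl39l, which has almost no counts.

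Set directly against each other, PRELP-/- and OMD-/- gave no member that passed with all libraries. The test called 0 of 77 in either direction by edgeR (1 had an unadjusted p under 0.05, and the lowest adjusted p was 0.69), with 0.0% of all 15805 genes higher and 0.00633% lower, and DESeq2 called 0 members (0.0245% of all genes higher and 0.402% lower) and limma-voom 3 higher (1.88% and 4.51%). The median log2 fold change of the members was 0.84, and all 77 were above 0. Rpl23a, Rpl27a and Rpl8 had the smallest p. Rpl8 was at 3353, 1420.4 and 1376 CPM in PRELP-/- and at 1328, 1105 and 1132 in OMD-/-. Rpl27a was at 3288, 1103 and 1099 CPM against 1092, 824 and 809. In both genes PRELP-/- replicates 2 and 3 lay above all OMD-/- libraries. Rpl23a was at 58.7, 13.3 and 24.5 CPM against 16.0, 12.0 and 8.82, and the Tlcd1 gene overlaps 59.7% of its exons on the other strand. Here libraries with the same number deviated together (r = 0.353, 0.217 and 0.192 across genes). Replicate 1 lay apart from replicates 2 and 3 in both knockouts, so these values cannot show pairing by number. With the number as a block the test again called 0 members, with a median of 0.66.

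With replicate 1 of both knockouts left out, an alternative chosen after seeing the data, 69 of 77 members were higher in PRELP-/- and 0 lower, against 8.82% and 11.1% of all genes. Their log2 fold changes were small, 0.11 to 0.44 (adjusted p 1.7e-14 to 0.0403), and the median over the 77 was 0.30. This contrast sets 1 close pair of libraries against another, and these pairs differ within themselves by less than the other libraries of a genotype do, so its p-values rest on that small spread. When each close pair was summed and counted as 1 sample, also chosen afterwards, 0 members were higher in any of the 3 comparisons and Rps10 was lower in OMD-/- against WT. Over all genes that fit called 3.41% higher and 5.65% lower in OMD-/- against WT, 0.0% and 0.0709% in PRELP-/- against WT, and 0.0% either way between the knockouts.

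PRELP-/- replicate 1 was the highest of the 10 libraries in 75 of 77 members, all but Rpl24 and Rps10, where it was highest in 32.7% of all genes tested. Against the mean of replicates 2 and 3 the members were 1.45-fold to 4.54-fold higher, with a median of 3.06, and 74 of 77 were at least 2-fold higher. Rps14 was at 4835 CPM against 1103 and 1027, Rps27 at 3938 against 1045 and 1035, and Rps18 at 2839 against 780.2 and 738. Rpl4 had the smallest fold, at 3194 CPM against 2239 and 2175, and Rpl6 and Rpl29 were 2.0-fold and 1.86-fold higher. Rplp0 alone reached 9093 CPM.

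Other short transcripts were higher in this library too. Set against replicates 2 and 3, the median log2 difference of other protein-coding genes was 0.98 for transcripts under 500 bases (55 genes), 0.90 from 500 to 1000 bases (657 genes), 0.50 from 1000 to 2000, 0.03 from 2000 to 4000 and −0.54 above 4000 bases. The members, at 1.61, lay above all these classes, and above the 26 other coding genes that are both short and at 200 CPM or more, at 1.10. With a trend on transcript length removed from each library, chosen after seeing the data, the median fold change of the members in PRELP-/- against WT was 0.58 and 33 were called higher, where 6.39% of all genes were higher and 11.0% lower. In PRELP-/- replicates 2 and 3 other coding genes under 1000 bases were at −0.01 and −0.04 relative to WT while the members were at 0.30 and 0.20. The 5 erythroid markers summed to 473.5 CPM in replicate 1 and to 35.4 to 69.6 CPM elsewhere, and the umbrella markers to 23440 CPM against 13900 and 13360 in replicates 2 and 3. Of the 7 umbrella markers 6 were higher in replicate 1, while Krt20 was lower, at 147 CPM against 239 and 229. The fibroblast markers summed to 9861 CPM against 19360 and 18950, and the endothelial markers to 199.5 against 370.5 and 357. It also had the lowest TMM factor, 0.816 against 0.937 to 1.11, and the fewest genes detected, 21221. Apart from the fit with the length trend removed, the part of each of these in the members' rise was not tested.

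**Figure D5:**
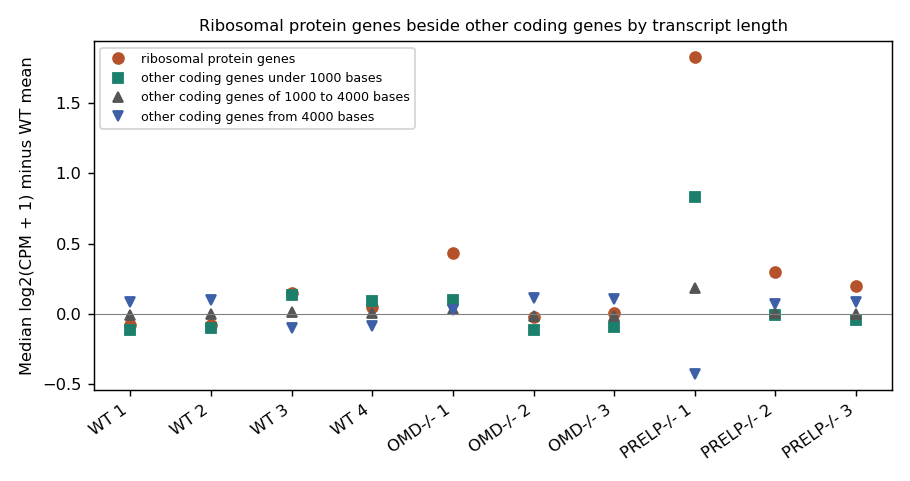
Median difference of log2(CPM + 1) from the WT mean in each library, for the ribosomal protein genes and for other coding genes in 3 classes of transcript length. In PRELP-/- replicate 1 the members are at 1.82 and other genes under 1000 bases at 0.83, while in OMD-/- replicate 1 they are at 0.43 and 0.10.

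The companion list holds 8 genes whose names escape the rule, among them Rack1 (a scaffold on the small subunit), Fau (which encodes the small-subunit protein eS30) and Rps3a1. In OMD-/- 0 of 8 passed by edgeR (1 had an unadjusted p under 0.05), and in PRELP-/- with all libraries 0 of 8 (4 had one). Over all genes 14.3% were higher and 15.1% lower in the first comparison, and 1.4% and 5.89% in the second. Without PRELP-/- replicate 1, 1 of 8 was higher, a share near the 10.7% of all genes. This was Rps3a1, at 1371 and 1333 CPM against 992 to 1137 in WT (0.35 ± 0.08, adjusted p = 0.0168). Rack1 was at 1709.7 and 1581 CPM against 1103 to 1433 (0.38 ± 0.12, adjusted p = 0.052) and Fau at 620.3 and 515 against 452 to 498. All 8 were higher in PRELP-/- replicate 1 than in replicates 2 and 3 (median log2 difference 1.45), as were 8535 of all 16581 genes tested (median 0.02). Rpl7l1, Rpl22l1, Rpl36al and Rps27rt, the last 2 at under 6 CPM in every library, passed in neither comparison with WT.

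A list of 19 genes with TOP messages holds mainly translation factors, with others such as Npm1, Nap1l1 and Hnrnpa1. In OMD-/- 6 of 19 were higher and 0 lower (median log2 fold change 0.24), beside 14.3% of all genes higher. In PRELP-/- 2 of 19 were higher (median 0.76), beside 1.4% of all genes, and without replicate 1 it was 10 of 19 (median 0.31), beside 10.7%. Eef2, the translocation factor, was at 6861, 5073 and 5151 CPM in OMD-/-, at 12114, 7255 and 6892 in PRELP-/- and at 4232 to 4648 in WT, a rise of 0.37 ± 0.11 on the log2 scale in the first and 0.97 ± 0.23 in the second (adjusted p 0.0313 and 0.0405). Eif3l, a subunit of initiation factor 3, was at 275, 236 and 227 CPM in OMD-/- and 474, 264 and 266 in PRELP-/-, against 172 to 185 in WT (0.45 ± 0.08 and 0.87 ± 0.21, adjusted p 0.00277 and 0.0419). Eef1d was at 232, 174 and 176 CPM in OMD-/- against 136 to 151 in WT (0.43 ± 0.10, adjusted p = 0.01). For all 3 genes the OMD-/- libraries were all above the WT libraries, where 19.2% of all genes were so. These genes were named because they passed with the largest change in these data, so the separation adds no support. The comparisons of the 2 knockouts share the WT libraries. The difference between this list and the members was not tested.

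Of 35 ribosome biogenesis genes 1 was higher and 7 lower in OMD-/- (median −0.12), where 15.1% of all genes were lower. In PRELP-/- 0 were higher and 2 lower (median −0.14), a share near the 5.89% of all genes, and without replicate 1 it was 0 higher and 8 lower (median −0.13), beside 11.5%. Gnl3, nucleostemin, was at 21.3, 22.6 and 21.9 CPM in OMD-/- and 17.3, 19.8 and 20.5 in PRELP-/-, against 33.7 to 43.7 in WT (−0.84 ± 0.11 and −1.04 ± 0.15, adjusted p 0.000317 and 0.0056). Nop56, of the box C/D snoRNP, was at 30.1 to 32.6 and 26.8 to 30.0 CPM against 39.2 to 43.5 (−0.38 ± 0.08 and −0.53 ± 0.12, adjusted p 0.00666 and 0.0367). In both genes all 6 knockout libraries, PRELP-/- replicate 1 included, were below all WT libraries. Over all genes tested 19.7% lay wholly below WT in OMD-/- and 16.4% in PRELP-/-, and the comparisons share the WT libraries. Both genes were named because they passed in these data, so their separation adds no support. Mdn1, a large-subunit maturation ATPase, fell in OMD-/- (31.7 to 34.0 against 49.9 to 80.2 CPM, −0.92 ± 0.14, adjusted p = 0.00126), as did Rrp9 of the U3 snoRNP (−0.41 ± 0.12, adjusted p = 0.0286). Of 14 genes of RNA polymerase I and its factors 1 was higher and 3 lower in OMD-/-, beside 14.3% and 15.1% of all genes. In PRELP-/- 1 was lower and without replicate 1 it was 4, beside 5.89% and 11.5% of all genes. Taf1a, of the selectivity factor SL1, was at 4.5 to 5.37 CPM in OMD-/- and 4.46 to 5.05 in PRELP-/- against 12.5 to 15.2 in WT (−1.48 ± 0.14 and −1.57 ± 0.16, adjusted p 5.87e-05 and 0.000965). Taf1d, another part of that factor, fell in OMD-/- by 2.02 on the log2 scale (SE 0.199, adjusted p = 8.1e-05), and Taf1c, of the same factor, fell by 0.49 (SE 0.125, adjusted p = 0.0142).

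Of 19 regulators of TOP messages, 3 were higher and 4 lower in OMD-/- and 1 higher and 2 lower in PRELP-/- (2 and 2 without replicate 1). Beside this list and those below, 14.3% of all genes tested were higher and 15.1% lower in OMD-/-. In PRELP-/- these shares were 1.4% and 5.89%, and 10.7% and 11.5% without replicate 1. Both S6 kinase genes were lower in both knockouts. Rps6kb1 was at 34.8 to 41.4 CPM in OMD-/- and 37.6 to 42.0 in PRELP-/- against 54.2 to 62.8 in WT (−0.59 ± 0.09 and −0.56 ± 0.13, adjusted p 0.00119 and 0.0329), and Rps6kb2 was at 8.31 to 9.64 and 8.46 to 9.94 CPM against 16.0 to 18.7 (−0.96 ± 0.12 and −0.99 ± 0.15, adjusted p 0.000275 and 0.00589). Eif4ebp2, an inhibitor of cap-dependent initiation, was higher in both (0.46 ± 0.10 and 0.64 ± 0.15, adjusted p 0.00708 and 0.0425). The 2 comparisons share the WT libraries. Of 15 p53 response genes 4 were higher and 5 lower in OMD-/-, and 1 higher and 0 lower in PRELP-/-. Without OMD-/- replicate 1 it was 1 higher and 6 lower in the first, beside 13.5% and 12.0% of all genes. Without PRELP-/- replicate 1 it was 2 higher and 4 lower in the second. Bax, a promoter of apoptosis, was at 12.6 to 17.6 CPM in OMD-/- against 21.8 to 24.8 in WT (−0.61 ± 0.13, adjusted p = 0.00492). Bbc3, which encodes the apoptosis factor Puma, was at 3.77 to 4.71 CPM against 5.79 to 7.62 (−0.66 ± 0.17, adjusted p = 0.0152). Eda2r, a receptor of the TNF family, was at 5.53 to 9.8 CPM against 3.46 to 4.39 (0.79 ± 0.22, adjusted p = 0.0195), so these p53 targets moved in both directions. In PRELP-/- it was Zmat3, an RNA-binding p53 target, that rose, at 121, 93.9 and 98.9 CPM against 57.2 to 77.4 in WT (0.62 ± 0.15, adjusted p = 0.0446). Mdm2, which Rpl5 and Rpl11 bind, was at 40.3 to 41.6 CPM in OMD-/- against 54.9 to 57.6 in WT (−0.45 ± 0.07, adjusted p = 0.00146), and at 57.9, 36.7 and 40.3 in PRELP-/- (−0.34 ± 0.17, adjusted p = 0.233, but −0.53 ± 0.08 and 0.00342 without replicate 1). The 77 mitochondrial ribosomal protein genes tested had 0 higher and 3 lower in OMD-/- (median −0.04) and 0 called by edgeR in PRELP-/- (7 had an unadjusted p under 0.05, median 0.33). Without replicate 1 their median was −0.01, with 1 higher and 1 lower. In replicate 1 itself 77 of 77 were above replicates 2 and 3 (median 0.91), beside 8535 of all 16581 genes (median 0.02). The 13 genes encoded by the mitochondrial genome were listed at 0 in every library.

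Reads of ribosomal protein genes are hard to place, because the genome holds many processed copies of them. In the annotation 294 pseudogenes carry a member's name with the ending -ps. They took 0.0486% to 0.0638% of counts in 9 libraries and 0.133% in PRELP-/- replicate 1, so they followed the members at a far smaller share. By 50-base windows of the principal transcript, the share found in no other annotated transcript had a median of 48.7% over the 77 members, from 1.4% in Rps27 to 100%, and was under 20% in 18. Rpl10, at 14.6%, and Rps6, at 15.4%, are among these, while Rpl37a is at 61.5%, Rpl22 at 94.8% and Rpl8 at 93.5%. How the authors' counting treated reads with several matches is not given in the sources used here, so the level of a member with few unique windows is uncertain.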

How the data were processed

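Bladder RNA was sequenced in 10 libraries, which were stranded, enriched for poly(A) and carried UMIs (tags for single molecules). The deposited files hold whole-number counts of reads per gene, 1 file per library and without normalization. Their headers name HISAT2, while the submitters' processing notes list bcl2fastq, STAR 2.5.2b, featureCounts and DESeq2 with the builds GRCm38 and hg38 and no roles. Strand setting, use of the identifiers and treatment of reads with several matches are not given in the sources used here. Tables of the authors' own DESeq2 comparisons (fold changes and p-values) were not used. The labels speak of bladder tissue, the paper of isolated epithelia, and its numbers for WT and OMD-/- differ from the labels, which were followed.

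All 55536 identifiers matched GENCODE vM21, which gave names, exon overlaps and principal transcript lengths. Every comparison used only the libraries of its 2 groups, in R 4.3.3 and edgeR 4.0.16: filterByExpr, TMM, robust dispersion, two-sided quasi-likelihood test, Benjamini-Hochberg adjustment over all genes tested, and a threshold of 0.05. CPM in the text use TMM factors over all 10 libraries, and log2 differences between libraries use a pseudocount of 1 CPM. A fold change is thus relative to the bulk of genes. limma 3.58.1 and DESeq2 1.42.0 served as alternatives. Members and gene lists were chosen with earlier results of these data known. Named were members with a known role, the 6 highest and 6 lowest that passed against WT with a mean of at least 1 CPM, the 3 smallest p where none passed, the 3 highest and lowest levels, and up to 3 genes per other list with the largest change that passed. Members named for the profile of 1 library, for a split within WT, for a low level, for read placement or for a rise without a library, and Mdm2, were chosen after their values were seen. In simulated data with known changes, a log2 change of 1 was recovered for 75.5% of genes in OMD-/- against WT (16346 genes), 43.9% in PRELP-/- against WT (16282) and 23.7% in PRELP-/- against OMD-/- (15573), and a change of 2 for 91.7%, 83.2% and 86.2%. Genes were drawn independently, without close pairs of libraries or shifts of a whole library. Changes under 1 were not simulated, so the rates do not cover the smaller changes called here. Same-numbered libraries deviated together in PRELP-/- against OMD-/- only (r = 0.353, 0.217 and 0.192), with no shared litter, batch or day in the labels. These values are not independent of each other, because replicate 1 lay apart in both knockouts. The alternatives tried were other scalings, no filter, DESeq2, limma-voom, 1 fit of all groups, a Y-linked covariate, a replicate block, each library left out and, added after seeing the data, close pairs summed, a transcript length trend removed and the first knockout replicates left out. Precision is limited by the number of libraries, with 20391437 to 46269079 counts each. Single values of some genes are not reported here.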

Additional observations from a re-analysis of the deposited data

How the results depend on the processing

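In OMD-/- against WT, 10 members were higher. The count was 10 with RLE size factors or with TMM factors taken without the members, beside 2376 and 2389 higher of all 16647 genes. It was 13 without a filter and with DESeq2, beside 2439 of 31201 and 2639 of 31195 genes. The 31195 are all genes with a p-value in DESeq2, whether or not it was adjusted. The share among genes with an adjusted p may thus be higher. With a Y-linked covariate it was 14 and with limma-voom 8, beside 3303 and 3684 of 16647 genes. It was 0 on library totals and 0 with all 3 groups in 1 fit, beside 1256 of 16647 and 1110 of 16912 genes. With close pairs summed it was 0 and with the length trend removed 22, beside 624 of 18310 and 2424 of 16647 genes. Leaving out 1 library gave 2 to 8, the lowest without OMD-/- replicate 1, while 1382 to 2339 of all genes were higher in these fits. The count of lower members was 1, and 1 in every fit without a library. It was 6 with limma-voom, where 3528 of 16647 genes were lower. The median was −0.04 on library totals and −0.003 to 0.214 with 1 library left out.

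In PRELP-/- against WT, 0 members were higher. The count was 6 without a filter, 40 with DESeq2, 35 with limma-voom and 22 with all 3 groups in 1 fit. Over all genes these fits called higher 208 of 31117, 954 of 18962 with an adjusted p, 3389 of 16581 and 976 of 16912. With the length trend removed 33 members and 1059 of 16581 genes were higher. With replicate 1 also left out it was 39 members and 1798 of 17120 genes. The members' count was 0 to 36 with 1 library left out, 36 without PRELP-/- replicate 1, where 10.7% of all genes were higher. Leaving out any other library gave 19 to 55 genes higher. The count of lower members was 1 with DESeq2, limma-voom and both fits on length, and 0 to 1 with 1 library left out. Over all genes 8.53% were lower with DESeq2, 21.6% with limma-voom and 11.0% with the length trend removed. The median was 0.25 with limma-voom, 0.30 without replicate 1 and the length trend, and 0.25 to 1.22 with 1 library left out.

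In PRELP-/- against OMD-/-, 0 members were higher. The count was 3 with limma-voom, 69 without replicate 1 of both knockouts and 60 with the length trend also removed. Over all genes 1.88% were higher with limma-voom, 8.82% without both replicates and 1478 of 16074 with the trend also removed. With any 1 library left out 0 members were higher and 0 lower, beside 0 to 9 genes higher and 1 to 36 lower. The median was −0.31 with the Y-linked covariate, where Rpl27a was at −0.153 and Rpl8 at −0.053, and 0.14 to 1.106 with 1 library left out. The cause of these shifts was not tested.

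With the replicate number as a block (replicate block), 0 members were higher and 1 lower in OMD-/- (median 0.14), beside 1675 and 1841 of 16647 genes. In PRELP-/- against WT 0 members passed (median 0.78), beside 0 higher and 115 lower of 16581 genes. Between the knockouts 0 passed (median 0.66), beside 3 higher and 40 lower of 15805 genes. Against WT the correlations of same-numbered deviations were 0.041, −0.047 and 0.026 for OMD-/- and −0.079, 0.136 and −0.115 for PRELP-/-. With so few libraries and close pairs among them, these values neither show pairing by number nor exclude it.

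The 3 libraries per knockout, close pairs among them and 1 library apart limit what the comparisons can show. On library totals the median of all genes lay at −0.16 in OMD-/- and −0.20 in PRELP-/- against WT, so directions of small changes are relative to the scaling.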
